A study of Homo sapiens with 3 samples.

Results

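The 3 human Grainyhead-like genes, GRHL2, GRHL1 and GRHL3, were examined in ChIP-seq lists of LNCaP, an androgen-responsive cell line derived from a metastatic prostate carcinoma. Members were all regions called for H3K27ac or H3K4me1 that overlapped a window around each gene (build hg19, positions counted from 1). The windows were chromosome 8 from 102360001 to 102700000 for GRHL2, chromosome 2 from 10060001 to 10170000 for GRHL1 and chromosome 1 from 24620001 to 24720000 for GRHL3. They held 133 of the 271889 regions outside the mitochondrial sequence, namely 55 of 71077 H3K27ac regions and 78 of 200812 H3K4me1 regions. H3K27ac is an acetylation of active promoters and enhancers, and H3K4me1 a monomethylation of enhancers in general. Each mark had 1 LNCaP library, grown with no treatment named in the labels and without a replicate, so no test between conditions was possible and the values are a description. Read numbers are not part of the files, so depth is unknown, and a called region does not tell a mark present in every cell from one present in some. The input library, and the PrEC and PC3 cells named in the series design, were not analysed here.

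Grainyhead factors are sequence-specific DNA-binding proteins of surface epithelia. GRHL2 maintains the epithelial state, activates junction genes such as CDH1 and stands in mutual repression with ZEB1, a driver of epithelial-mesenchymal transition. GRHL1 acts in the outer epidermis, where it controls desmosomal cadherins, and GRHL3 is needed for the skin barrier, wound closure and neural tube closure in the mouse. In RefSeq, TAF1B and KLF11 are the protein-coding neighbours of GRHL1, while GRHL3 overlaps STPG1 and GRHL3-AS1. For GRHL2 the protein-coding neighbours are LOC124901993 on the lower side and NCALD on the higher side. GRHL2 overlaps GRHL2-DT, LOC100131593 and LOC124901995. Regions near the ends of a window, and those upstream of GRHL2, may thus belong to a neighbour. Gene spans in hg19 were at hand for GRHL2 alone, so regions of GRHL1 and GRHL3 were not placed relative to their starts.

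Promoter sequences are shown because the starts of GRHL1 and GRHL3 differ sharply in CpG content, a feature the choice of regions did not use. RefSeq promoters (250 bases before to 50 after the start, plus strand, GRCh38.p14) were matched by symbol for GRHL1 and GRHL3 and not for GRHL2. They are given 5′ to 3′ with every CpG in capitals. Their bases were not aligned to the hg19 regions.
GRHL1 promoter: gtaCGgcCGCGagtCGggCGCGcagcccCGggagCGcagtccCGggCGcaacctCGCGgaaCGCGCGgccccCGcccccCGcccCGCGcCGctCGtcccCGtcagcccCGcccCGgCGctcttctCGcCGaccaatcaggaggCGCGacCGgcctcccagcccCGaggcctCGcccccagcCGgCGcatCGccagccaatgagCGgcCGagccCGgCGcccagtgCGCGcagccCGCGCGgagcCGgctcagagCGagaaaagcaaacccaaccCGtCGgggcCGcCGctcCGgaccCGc
GRHL3 promoter, upstream start: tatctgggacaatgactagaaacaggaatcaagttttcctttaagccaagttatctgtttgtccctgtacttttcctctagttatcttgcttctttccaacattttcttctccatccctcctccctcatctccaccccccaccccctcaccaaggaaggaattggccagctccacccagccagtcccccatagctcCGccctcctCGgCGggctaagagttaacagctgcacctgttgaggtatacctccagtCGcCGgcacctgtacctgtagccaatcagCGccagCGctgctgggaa
GRHL3 promoter, downstream start: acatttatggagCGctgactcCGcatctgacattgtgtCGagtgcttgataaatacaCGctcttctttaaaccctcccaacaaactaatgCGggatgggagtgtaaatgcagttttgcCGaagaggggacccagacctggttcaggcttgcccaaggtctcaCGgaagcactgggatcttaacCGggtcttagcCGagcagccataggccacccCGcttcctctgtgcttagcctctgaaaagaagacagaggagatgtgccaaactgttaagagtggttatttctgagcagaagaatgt
The GRHL1 promoter held 52 CpG at 79.7% G and C, a number reached by 0.780% of the 35114 RefSeq promoters, whose median was 14. The GRHL3 promoters held 7 CpG (53.0% G and C) at the upstream start and 10 CpG (50.0%) at the downstream start. The CCAAT box (CCAAT, either strand, present in 34.6% of all promoters) matched at 2 places in the GRHL1 promoter, at 2 in the upstream GRHL3 promoter and at 0 in the downstream one. The GC box (GGGCGG, either strand, 45.0% of promoters) matched at 3, 1 and 0 places in the same order. The E-box (CANNTG, 68.7% of promoters) matched at 0, 3 and 1 places. The Grainyhead consensus AACCGGTT, which is its own reverse complement and was found in 0.134% of all promoters, had 0 matches in each of the 3 sequences, as did the looser AACCNGTT (1.73%).

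The 3 genes differed more in acetylation than in H3K4me1. H3K27ac regions covered 138.8 kb of the GRHL2 window (40.8%), 10.45 kb of the GRHL1 window (9.50%) and 10.7 kb of the GRHL3 window (10.7%). The share at GRHL2 was 4.30 times that at GRHL1 and 3.82 times that at GRHL3, which lay close to each other. H3K4me1 regions covered 40.5% of the GRHL2 window, 30.9% of the GRHL1 window and 29.0% of the GRHL3 window. Over all chromosome spans the shares were 4.65% for H3K27ac and 9.45% for H3K4me1. All 3 windows as drawn were above the whole lists for both marks. At GRHL3 this rested, for H3K27ac, on regions within 10 kb of the window's ends, which may belong to neighbouring genes. Without them, the GRHL3 window had 3.15% under H3K27ac, below the whole list, and 15.35% under H3K4me1, while H3K27ac at GRHL2 and GRHL1 had no region so close to an end. Both trimmed values are shares of the full 100 kb, which makes them low. The GRHL2 window is longer than the others and was drawn to hold a run of acetylation already known, which favours it. In windows of 100 kb around the same midpoints, the H3K27ac shares were 55.1%, 10.45% and 10.7% at GRHL2, GRHL1 and GRHL3.

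**Figure D1:**
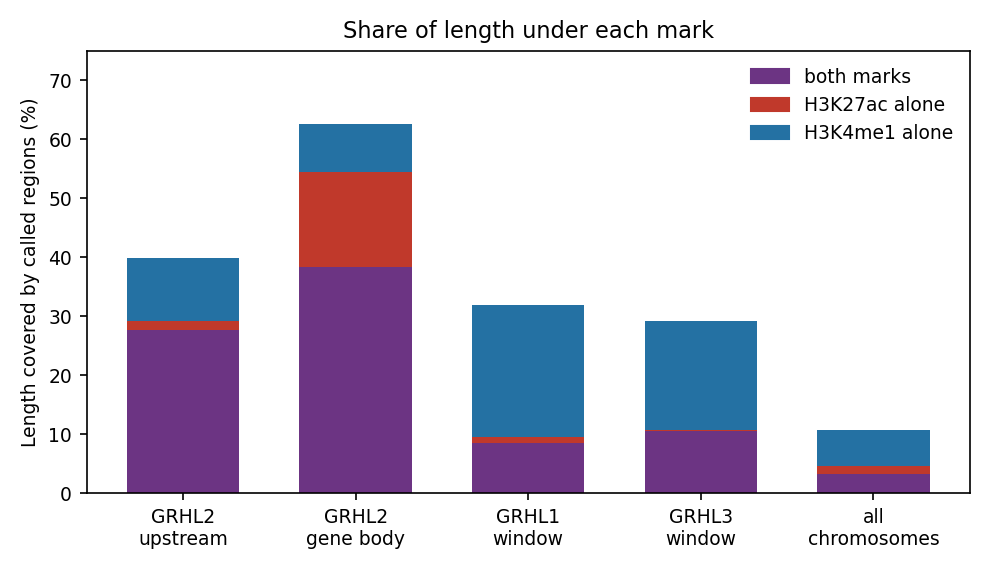
Stacked bars give the percent of length covered by both marks, by H3K27ac alone and by H3K4me1 alone in the upstream part and the gene body of GRHL2, the GRHL1 and GRHL3 windows, and all chromosome spans, from 1 library per mark. H3K27ac alone took 16.1% of the GRHL2 gene body and 1.59% of its upstream part. It took 1.05% of the GRHL1 window, 0.20% of the GRHL3 window and 1.33% of all chromosome spans. Over the whole GRHL2 window, which has no bar, the value was 9.06%.

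The balance of the marks differed between the GRHL2 window and those of its paralogs in these lists. Because the GRHL2 window was drawn to hold a known H3K27ac run, a high balance there was favoured by that choice. The GRHL3 values include the regions near its window's ends. All are given as a description. GRHL2 had 1.01 kb of H3K27ac per kb of H3K4me1, GRHL1 0.308 kb, GRHL3 0.369 kb and the whole lists 0.492 kb. Of the H3K4me1 length, 78.4% lay in H3K27ac at GRHL2, 27.4% at GRHL1 and 36.2% at GRHL3, against 35.1% in the whole list, so the paralogs were near the list and GRHL2 was above it. At GRHL2 both marks together took 108.0 kb, H3K27ac alone 30.8 kb and H3K4me1 alone 29.8 kb, against 24.65 kb of H3K4me1 alone at GRHL1 and 18.5 kb at GRHL3. Region counts differed less than covered length. H3K27ac had 12.1 regions per 100 kb at GRHL2, 6.36 at GRHL1 and 7.0 at GRHL3, and H3K4me1 had 13.8, 14.5 and 15.

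Of the 3 windows, only that of GRHL2, the longest and drawn on a known acetylated run, held H3K27ac regions of 10 kb or more. The median H3K27ac region was 1250 bp at GRHL2, 1300 bp at GRHL1 and 1400 bp at GRHL3, all below the 1600 bp of the whole list. This order turned with the handling of regions. The medians were 4525, 1825 and 2000 bp at GRHL2, GRHL1 and GRHL3 with scores at or below the list median, and 3250, 1350 and 1725 bp after regions within 1 kb were merged. The widest was 26950 bp at GRHL2, 2150 bp at GRHL1 and 2500 bp at GRHL3. GRHL2 had 3 of 41 H3K27ac regions of 10 kb or more, GRHL1 and GRHL3 had 0 of 7 each, and 0.625% of the whole list reached this width. With 7 regions each, the paralogs had too few to show a lower share than GRHL2. Without the widest region, H3K27ac still covered 32.9% of the GRHL2 window. The lowest score of the list, 0.001, an unnamed value of the authors', was carried by 10 of 41 regions at GRHL2, 0 of 7 at GRHL1 and 1 of 7 at GRHL3, against 14.3% of all H3K27ac regions. H3K4me1 regions of 10 kb or more numbered 3 of 47 at GRHL2 and 0 at both paralogs, against 0.329% of the list.

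The windows were also set beside their surroundings. Since the GRHL2 window was drawn to hold its run, a high ratio to its flanks was fixed by that choice and is given as a description. The windows of the same length (340 kb) on either side had 7.16% and 4.07% of their length under H3K27ac, on the lower and the higher side, so the GRHL2 window was at 7.27 times their mean. For H3K4me1 the flanks had 16.9% and 7.84%, and the ratio was 3.28. At GRHL1 the corresponding ratios were 1.02 for H3K27ac and 1.41 for H3K4me1, and at GRHL3 1.45 and 1.74. LNCaP has an abnormal karyotype, and the part of copy number in these shares was not tested. With flanks of 1 Mb, the H3K27ac ratio of GRHL2 was 4.84.

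Among all windows of equal length laid end to end along the chromosomes, 12 of 8271 (0.145%) had at least as much H3K27ac as the GRHL2 window, and 101 (1.22%) at least as much H3K4me1. The median window of 340 kb had 3.51% under H3K27ac and 7.40% under H3K4me1. GRHL1 was matched by 4458 of 23682 windows of 110 kb (18.8%) for H3K27ac and by 1673 (7.06%) for H3K4me1. GRHL3 was matched by 4162 of 25801 windows of 100 kb (16.1%) for H3K27ac and by 2180 (8.45%) for H3K4me1. As drawn, the paralog windows ranked higher by H3K4me1 than by H3K27ac, and the GRHL2 window the other way round. The windows compared are a fixed grid, whereas the GRHL2 window was placed on its H3K27ac run, which favours its rank by that mark. The grid also ran across the locus itself, so a window holding the run may be among the 12. Without regions within 10 kb of its ends, the GRHL3 window had 3.15% under H3K27ac and 15.35% under H3K4me1, still as a share of the full 100 kb. The median window of 100 kb, with the regions near its ends kept, had 3.15% and 7.50%. The trimmed and untrimmed values are thus not alike, and their equality for H3K27ac carries no meaning. The 2 grid windows closest to GRHL2 in both shares lay at chromosome 4 from 41140001 to 41480000 (44.4% H3K27ac, 40.8% H3K4me1) and at chromosome 12 from 102000001 to 102340000 (37.9% and 38.2%).

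**Figure D2:**
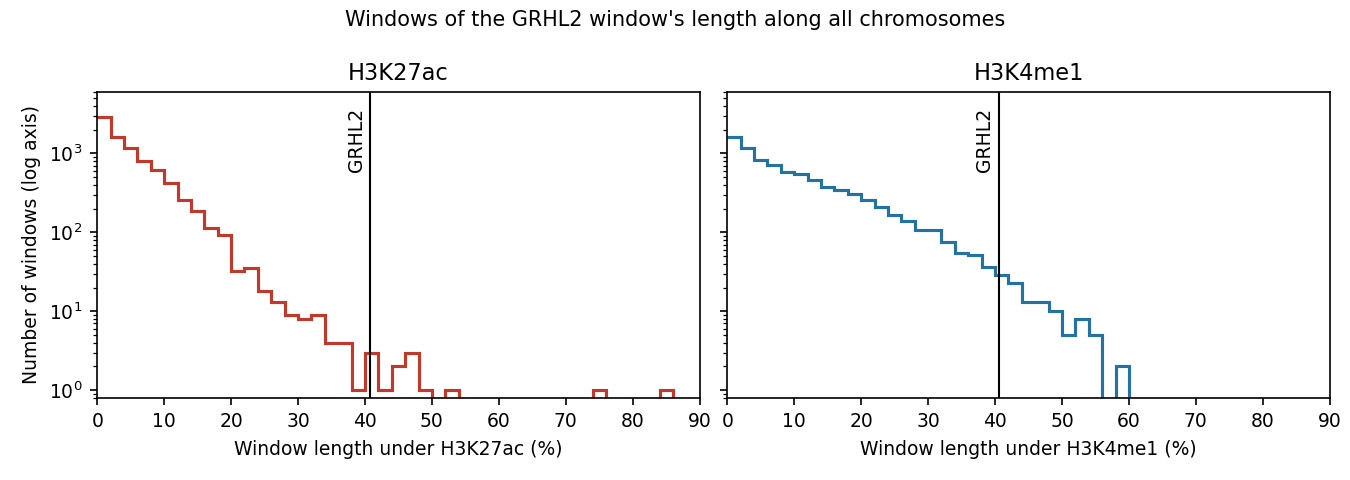
Outlines give the number of 340 kb windows (log axis) by the percent of their length under H3K27ac, left, and H3K4me1, right, with the GRHL2 window as a vertical line at 40.8% and 40.5%. The GRHL2 line lies in the sparse upper tail for H3K27ac, where 12 of 8271 windows are at least as covered, and less far out for H3K4me1.

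The long H3K27ac run was located at chromosome 8 from 102371301 to 102655300. Neighbouring H3K27ac regions were joined across gaps of up to 12.5 kb, which put all 41 regions of the window into 1 cluster of 284.0 kb, with 138.8 kb (48.9%) acetylated and rank 7 by acetylated length among 37027 clusters. It began 133.7 kb upstream of the gene start, taken as 102.505 Mb, and ended 150.3 kb into the gene, 26.7 kb short of the gene end at 102.682 Mb. The acetylated length was 42.35 kb upstream and 96.45 kb within the gene. The nearest other H3K27ac regions lay 25 kb before and 59.6 kb after the run. The largest gap inside it was 12150 bp, just under the joining distance, and both length and rank depended on how regions were joined and kept. With a distance of 5 kb, the piece with most acetylation had 19 regions over 82.85 kb with 52.4 kb acetylated (rank 41), and with 25 kb the rank was 12. At the distance of 12.5 kb, the longest cluster left without the widest region had 72.7 kb acetylated over 124.65 kb (rank 40), and that left with scores at or below the list median had 40.35 kb over 56.2 kb (rank 75). At GRHL1, joining gave a cluster of 6 regions from 10079551 to 10116850 with 9.35 kb acetylated (rank 2933), and at GRHL3 the longest cluster, which reached past the window to 24609601, had 6.0 kb (rank 5776).

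**Figure D3:**
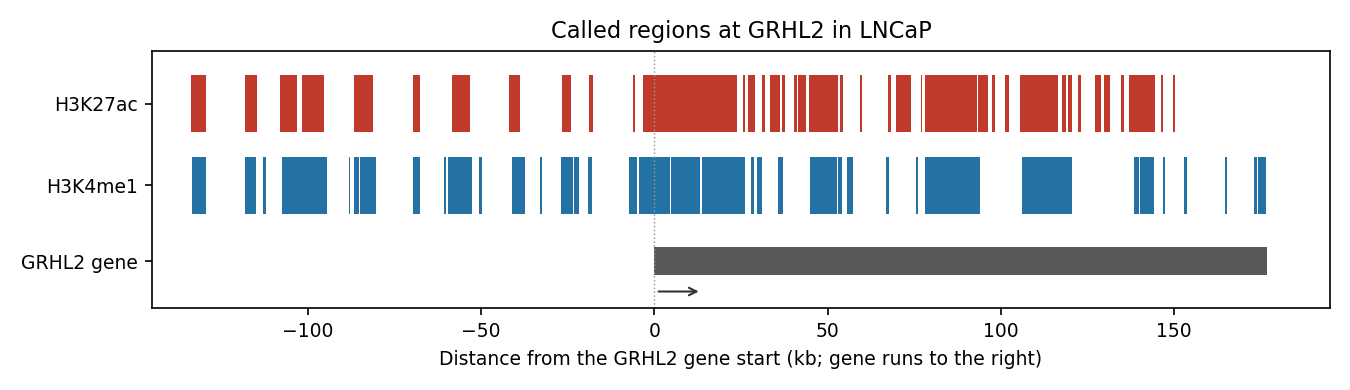
Each block is a called region of H3K27ac (upper row) or H3K4me1 (middle row) drawn to scale by distance from the GRHL2 gene start in kb, with the gene as a grey bar running to the right. Spaced blocks from 133.7 kb upstream give way at the start to a dense stretch that ends 150.3 kb into the gene for H3K27ac, while H3K4me1 blocks go on to the gene end.

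With all called regions counted, the upstream part and the gene body differed in spacing. Upstream, 11 regions lay as separate islands with a median width of 3250 bp, and 9 of the 11 gaps up to the start region exceeded 5 kb. In order towards the gene these 9 gaps were 11.25, 6.85, 8.70, 11.6, 9.15, 11.1, 12.15, 5.25 and 11.35 kb. The median gap was 9150 bp upstream, against 1600 bp over the 29 gaps inside the gene, of which 2 exceeded 5 kb, namely 102559401 to 102564500 (5.10 kb) and 102565051 to 102572450 (7.40 kb). Many short gaps lay between narrow regions with high scores. With scores at or below the list median, no region was kept between 102558000 and 102574801 or between 102621650 and 102642101, both inside the gene. The spacing contrast thus holds for all called regions and was not measured under that setting. H3K27ac covered 29.2% of the 145 kb upstream and 54.5% of the 177 kb gene. These shares were 28.7% and 42.3% with scores at or below the list median. H3K4me1 differed less, with 38.3% upstream and 46.5% in the gene. H3K27ac per kb of H3K4me1 was 0.763 kb upstream and 1.17 kb in the gene.

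The start of GRHL2 lay under the widest H3K27ac region of the locus. It ran from 102501801 to 102528750 (26.95 kb, score 0.001), from 3.2 kb before the start to 23.75 kb into the gene, and H3K4me1 covered 97.6% of it. The H3K4me1 region over the start ran from 102503151 to 102509650 (6.50 kb). In steps of 20 kb from the start, H3K27ac covered 100% of the first step and H3K4me1 97.0%. The step just upstream had 26.25% and 37.25%. Within the gene, H3K27ac was lower in the next steps (55.5%, 64.5% and 38.0%), reached 85.5% from 80 to 100 kb and 69.25% from 100 to 120 kb, and was 0 from 160 to 180 kb, where H3K4me1 still covered 19.0%.

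Of the 5 widest H3K27ac regions, the other 4 lay wholly inside the gene, while the next in width was upstream, from 102403301 to 102409650 (6.35 kb). The 4 ran from 102583001 to 102598150 (15.15 kb, 98.3% in H3K4me1), 102610551 to 102621650 (11.1 kb, 94.6%), 102549551 to 102558000 (8.45 kb, 91.1%) and 102642101 to 102649400 (7.30 kb, 76.0%). Each carried the score 0.001. The widest H3K4me1 regions ran from 102611151 to 102625600 (14.45 kb) and 102585151 to 102599150 (14 kb), over the 11.1 kb and 15.15 kb H3K27ac regions, and from 102518651 to 102531100 (12.45 kb), over the end of the start region. The next H3K4me1 region in width lay upstream, from 102445451 to 102452400 (6.95 kb). The first region of the run, 102371301 to 102375650, was 4.35 kb wide with 97.7% in H3K4me1. The last, 102654751 to 102655300, was 550 bp wide and met no H3K4me1 region.

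Every upstream H3K27ac region carried H3K4me1, whereas about as many regions inside the gene lacked it as had it. All 11 upstream regions and the region across the start shared 1 bp or more with an H3K4me1 region. Of the 29 further regions inside the gene, 14 did and 15 did not. For the whole GRHL2 window this gave 26 of 41 regions (63.4%, exact 95% interval 46.9% to 77.9%), against 6 of 7 at GRHL1, 7 of 7 at GRHL3 and 83.1% of all H3K27ac regions. The interval treats neighbouring regions as independent and covers counting error only. By length, H3K4me1 covered 94.6% of the acetylation upstream and 70.5% within the gene. Over the whole GRHL2 window it covered 77.8%, against 89.0% at GRHL1, 98.1% at GRHL3 and 71.5% in the whole list. As called, GRHL2 was thus below the list by number of regions and somewhat above it by length. Neither side was firm. Without the widest region, the share by length was 73.0%, near the list. With scores at or below the median of each list, the share by number was 88.9%, and no whole-list share at that setting is given.

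The regions without H3K4me1 were mostly narrow and had scores at or above the list median of 0.009. Their median width was 900 bp, 13 of 15 were under 1 kb, and together they took 16.6 kb of the 138.8 kb. Their scores ran from 0.009 to 0.032. The wider exceptions were 102574801 to 102579050 (4250 bp) and 102546501 to 102548850 (2350 bp). Among H3K27ac regions under 1 kb, 6 of 19 at GRHL2 overlapped H3K4me1, against 62.8% of the 15439 such regions in the list. With scores at or below the median of each list, 18 H3K27ac regions were kept at GRHL2 and 88.9% of them overlapped H3K4me1. The widest stretch of the gene without any H3K4me1 region, 102625601 to 102643350 (17.75 kb), held 6 whole H3K27ac regions. Inside the gene 9.50 kb (102562451 to 102571950) and 12.0 kb (102599151 to 102611150) without H3K4me1 held 1 and 2 whole H3K27ac regions. The shorter 102542151 to 102549900 (7.75 kb), 102572601 to 102580450 (7.85 kb) and 102652501 to 102657850 (5.35 kb) held 2, 1 and 1. H3K27ac took 4.25, 4.85 and 0.55 kb of these 3 stretches, in order. Towards the gene end, 102658701 to 102669750 (11.05 kb) and 102670401 to 102678250 (7.85 kb) held 0, beyond the end of the run. The upstream stretches of over 5 kb without H3K4me1 held 0 whole H3K27ac regions, which follows from every upstream region overlapping H3K4me1 and adds nothing to it.

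**Figure D4:**
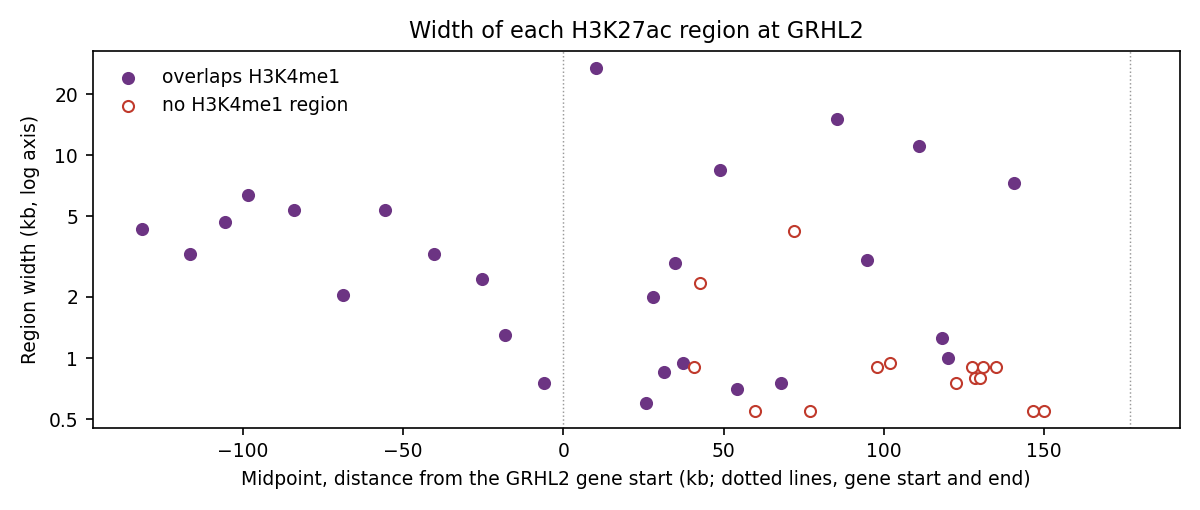
Each point is an H3K27ac region at GRHL2, by midpoint (kb from the gene start) and width (kb, log axis), filled where it overlaps H3K4me1 and open where it does not. The 15 open points all lie inside the gene, and 13 of them are under 1 kb wide.

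The extent of H3K4me1 around each acetylated region was also counted. H3K4me1 regions at most 200 bp apart were merged for this count, and the H3K27ac regions that met H3K4me1 were asked whether it reached past both of their ends, as it did in 50.3% of such regions in the list. It did so in 6 of 11 regions upstream of GRHL2, in the region across its start, in 2 of 14 inside the gene, in 6 of 6 at GRHL1 and in 5 of 7 at GRHL3. The GRHL3 count includes the regions near its window's ends, and neighbouring regions at GRHL1 can share a merged H3K4me1 stretch. With so few regions, no difference between the genes is read from these counts. Conversely, 33 of 47 H3K4me1 regions (70.2%, exact 95% interval 55.1% to 82.7%) overlapped H3K27ac at GRHL2, 5 of 16 (31.25%, 11% to 58.7%) at GRHL1 and 7 of 15 (46.7%, 21.3% to 73.4%) at GRHL3, against 34.5% of all H3K4me1 regions. Beyond the end of the acetylated run, 4 H3K4me1 regions without H3K27ac continued to the end of GRHL2, the last from 102679301 to 102681700 (2.40 kb).

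GRHL1 had 7 H3K27ac regions in a window rich in H3K4me1. The widest were 10092901 to 10095050 (2150 bp, score 0.009) and 10114751 to 10116850 (2100 bp, score 0.009). The first of these followed 10091301 to 10092600 (1300 bp), and the H3K4me1 regions 10090251 to 10093850 and 10093901 to 10096450 lay over the pair. The second, with 10112301 to 10113450 (1150 bp), lay inside the widest H3K4me1 region of the window, 10111651 to 10117250 (5600 bp). Further regions were 10079551 to 10081100 (1550 bp) and 10149801 to 10150900 (1100 bp), both wholly in H3K4me1. The region 10103051 to 10104150 (1100 bp) alone met no H3K4me1. Among the H3K4me1 regions, of which 5 of 16 overlapped H3K27ac (31.25%, close to the 34.5% of the list), the widest without acetylation was 10108201 to 10111500 (3300 bp, score 0.003).

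GRHL3 had 7 H3K27ac regions, each meeting H3K4me1. At the lower end lay 24620201 to 24622700 (2500 bp), the only acetylated region of the paralogs at the lowest score, and at the upper end 24710401 to 24712450, 24715151 to 24717100 and 24717951 to 24719000. These 4 regions lie near the window's edges and were not assigned to GRHL3. Between them lay 24638701 to 24639650 (950 bp), 24645501 to 24646900 (1400 bp) and 24671651 to 24672450 (800 bp). The last sat in a wider H3K4me1 region, 24668551 to 24672550 (4000 bp), and the middle one overlapped 24644601 to 24646850 (2250 bp) over 96.4% of its length. The widest H3K4me1 region, 24710201 to 24717600 (7400 bp), spanned 2 acetylated regions of the upper end. The widest H3K4me1 region without acetylation was 24648401 to 24650500 (2100 bp).

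**Figure D5:**
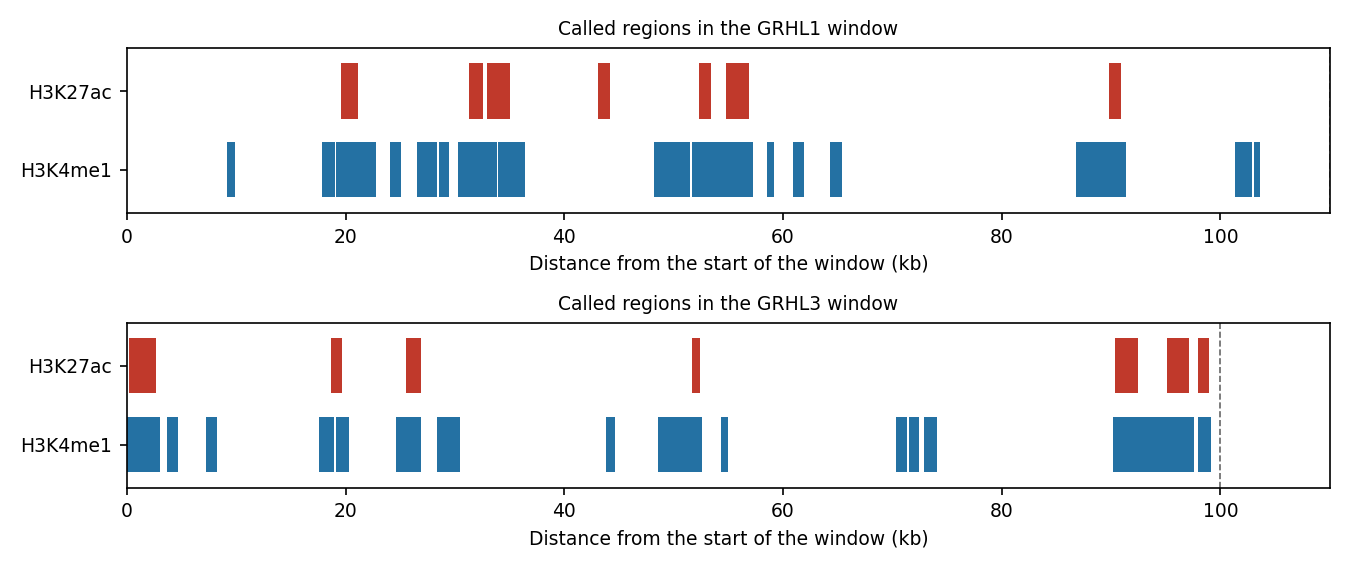
Each block is a called region of H3K27ac (upper row) or H3K4me1 (lower row), drawn to scale in kb from the start of the GRHL1 window (top panel) and the GRHL3 window (bottom panel, dashed line at its end). Both windows have 7 separate H3K27ac regions of 2500 bp or less, with broader H3K4me1 around most of them.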

How the data were processed

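ChIP-seq of H3K27ac and H3K4me1 and an input were made from LNCaP cells, 1 library each. Per the submitters' processing notes, Bowtie 0.12.8 was among the tools, with hg19 as the build. Which program called regions, at which threshold and with what use of the input is not given in the sources used here. Each deposited list gives chromosome, start, end and an unnamed score per region on a grid of 50 bp. The score (0.001 to 0.048 for H3K27ac, 0.001 to 0.093 for H3K4me1) served to describe and filter regions within a list. Caller and threshold set number and width of regions, so differences hold for the lists.

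Starts were read as 0-based. 1 mitochondrial region per list was left out. Regions were kept whole for counts and widths and trimmed to the window for covered length. Overlap meant at least 1 bp. Intervals are exact Clopper-Pearson (95%). Grid windows without any region were left out. The members, windows and comparisons were chosen with earlier results of these data known. Named were all regions of a mark where a window held few, otherwise the 5 widest, the ends of the run, the regions over the GRHL2 start and gaps over 5 kb. Interval functions were tested on 3000 simulated regions, with 0 wrong overlaps. Promoters and neighbours came from RefSeq tables (GRCh38.p14). Computation used scipy 1.17.1, pandas 2.3.3 and numpy 2.4.6 in Python 3.11.15, with plots by matplotlib 3.10.9.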

Additional observations from a re-analysis of the deposited data

How the results depend on the processing

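Of 131 alternative values, 98 did not move and 33 did. The criterion was leaving the exact interval for a share of regions, over 10 percentage points for the share of H3K27ac length in H3K4me1, and over 1.5-fold otherwise. With scores at or below the list medians, low scores being taken as the stricter, GRHL2 kept 18 H3K27ac regions of median 4525 bp, 88.9% of them with H3K4me1, and its H3K4me1 ratio to the flanks was 4.93. Under that setting GRHL1 and GRHL3 kept 4 H3K27ac regions each, covering 6.27% at GRHL1, where the median H3K4me1 width was 2225 bp, and the longest GRHL2 cluster had 40.35 kb in 4 regions over 56.2 kb (rank 75). After merging within 1 kb, the median width at GRHL2 was 3250 bp for H3K27ac and 3275 bp for 26 H3K4me1 regions, GRHL1 had 10 H3K4me1 regions, and the median H3K4me1 width at GRHL3 was 2500 bp. The cluster had 52.4 kb in 19 regions over 82.85 kb (rank 41) with a joining distance of 5 kb, and rank 12 with 25 kb. Without the widest H3K27ac region, an alternative chosen after seeing the data, it had 72.7 kb over 124.65 kb (rank 40). Without regions within 10 kb of the ends of a window (also added after seeing the data), GRHL3 had 3 H3K27ac regions over 3.15% and H3K4me1 over 15.35% of its window. With flanks of 1 Mb the H3K27ac ratio of GRHL2 was 4.84. Among windows of the same chromosome, 0.478% were as covered as GRHL2 for H3K27ac, 3.90% as GRHL1 for H3K4me1, and 24.9% and 17.1% as GRHL3 for H3K27ac and H3K4me1. The windows counted for GRHL2 may include a window over the locus itself. Asking for 50% overlap, windows of 100 kb, a shifted grid and kept empty windows moved no value they were applied to by this criterion. Nor did H3K4me1 scores up to the highest H3K27ac score (also chosen after seeing the data). The exact intervals at the paralogs are wide, so a share could change much without moving. With 50% overlap, 61.7% of H3K4me1 regions met H3K27ac at GRHL2, 12.5% at GRHL1 and 26.7% at GRHL3. H3K27ac regions with H3K4me1 were 48.8%, 85.7% and 100% in the same order. GRHL2 had the highest H3K27ac share of the 3 windows in each setting that recomputed it. No paired analysis was possible because 1 library stands for each mark. With depth unknown, a stretch without regions is not shown to lack the mark.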
